A study of Mus musculus with 6 samples.

Results

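The genes described here are 8 kinases that pass phosphate between adenine nucleotides, nucleoside diphosphates and creatine: the adenylate kinases Ak1, Ak7 and Ak8, the creatine kinases Ckb and Ckmt1, and Nme5, Nme7 and Nme8 of the nucleoside diphosphate kinase family. They were taken by symbol from a list that sets no condition on measured values, and all 8 were found among the 24411 genes of the deposited files. The material was RNA of whole testis from mice of the inbred C57BL/6 strain, sequenced as 6 libraries. The labels assign 3 libraries to the genotype MRP5-/- and MRP9-/- (labelled DKO below) and 3 to Wildtype (labelled WT), matched for an age that is not stated. MRP5 and MRP9 are the membrane transporters encoded by Abcc5 and Abcc12, and the labels do not say how either allele was made or which part of each gene was removed. The series concerns male reproduction and mitochondria, and the comparison asks whether transcripts of these kinases differ when the transporters are missing.

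A sperm tail is long and narrow, and its dynein motors consume ATP far from the mitochondria of the midpiece. Adenylate kinases regenerate ATP from ADP and leave AMP, creatine kinases move phosphate between ATP and creatine, and nucleoside diphosphate kinases move it between ATP and other nucleotides such as GDP. Several members of these families are built into the axoneme, the microtubule core of cilia and flagella, where they also have structural parts.

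The labelled DKO libraries held 42673615 to 67131103 expected counts and the labelled WT libraries 26753721 to 31745969, and the mean fragment length was 275 to 317 bases against 230 to 258 bases, so neither overlapped between the groups. Among 17110 tested genes, 1856 passed an adjusted p under 0.05 by edgeR's quasi-likelihood test with Benjamini-Hochberg adjustment (10.8%), of which 984 were higher and 872 lower in the labelled DKO libraries. Those totals moved with single libraries: 11 genes passed without labelled DKO replicate 1, 655 without labelled DKO replicate 2, 3029 without labelled DKO replicate 3, 13 without labelled WT replicate 2 and 7 without labelled WT replicate 3. Of the targeted genes, Abcc12 had 27.4, 26.9 and 25.5 TPM (a level per unit of transcript length, scaled to the same total in every library) in the labelled DKO libraries and 55.8, 58.4 and 55.7 TPM in the labelled WT libraries (log2 fold change -1.02 with an SE of 0.0739, edgeR adjusted p = 0.000307). Abcc5 was not lower in the labelled DKO libraries: it had 4.51, 4.48 and 4.84 TPM there and 3.28, 3.96 and 3.73 TPM in the labelled WT libraries (log2 fold change 0.56 ± 0.0896 SE, edgeR adjusted p = 0.0225). That Abcc5 call was lost without labelled DKO replicate 1, labelled WT replicate 2 or labelled WT replicate 3, at edgeR adjusted p of 0.0980, 0.0562 and 0.0993. The transcript of Abcc5 therefore does not check its label, since the position of the deleted part is not given.

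By mean TPM over the 6 libraries the 8 kinases fell into levels far apart. Nme5 (226 TPM), Ak8 (219 TPM), Ak1 (213 TPM) and Nme8 (207 TPM) stood highest, each above 94.6% of the tested genes or more, and their ranges over libraries overlapped. Ak7 (73.6 TPM) and Nme7 (70.1 TPM) came next, again with overlapping ranges. Ckb, the cytosolic creatine kinase best known from brain, had 6.37 TPM, and Ckmt1, a mitochondrial creatine kinase, had 0.105 TPM. The name of a flagellar phosphate shuttle therefore covers 6 transcripts that were abundant in these testes, 1 low transcript and 1 at a trace. Within the labelled WT libraries the order at the top was Ak8, Ak1, Nme8 and Nme5 (214, 206, 205 and 204 TPM), and within the labelled DKO libraries it was Nme5, Ak8, Ak1 and Nme8 (248, 224, 220 and 209 TPM). Nme5 went from last to first of the 4 and the others kept their order, but ranges of neighbours overlapped in both groups.

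**Figure D1:**
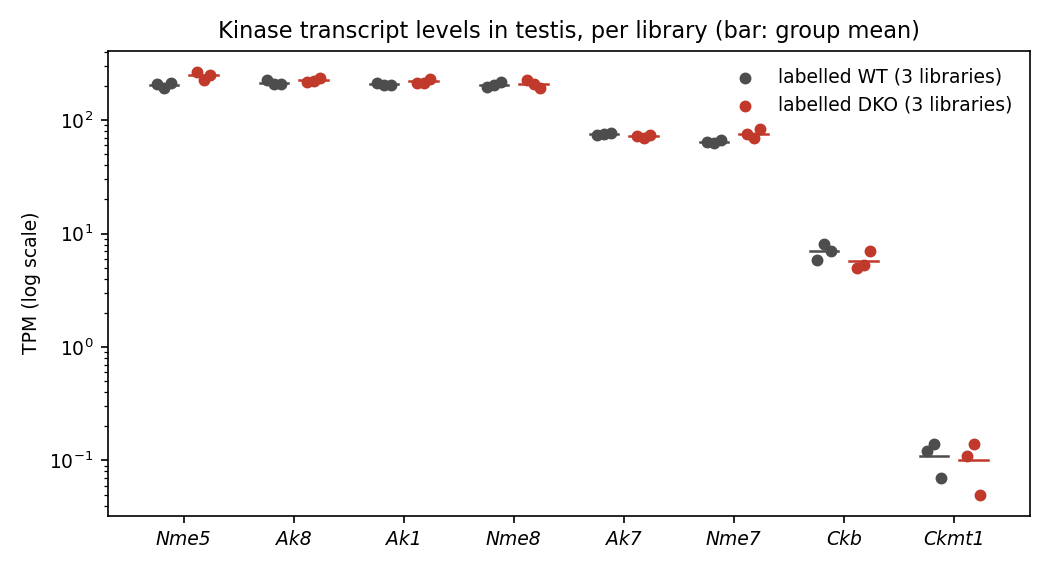
TPM of the 8 kinases on a log axis, 1 point per library and a bar at each group mean, for 3 labelled WT and 3 labelled DKO libraries. Nme5, Ak8, Ak1 and Nme8 lie between 191 and 266 TPM, Ak7 and Nme7 between 62.7 and 83.2 TPM, and both creatine kinases lie far below.

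Of the 8 kinases, 7 had enough counts to be tested and 1 of those 7 (14.3%) passed, Nme7, against 10.8% of all tested genes. It was higher in the labelled DKO libraries, as were 5.75% of all tested genes, and no member passed in the other direction (background 5.1%), where none had an unadjusted p under 0.05 either, by edgeR or by DESeq2. Both Nme7 and Nme5 had an unadjusted p under 0.05 (2 of 7, background 31.7%), and at an adjusted p under 0.10 both passed (background 23.4%). The log2 fold change was above 0 for 5 of the 7, with a median of 0.12, where the median of all tested genes was -0.00. In whole testis, fewer cells of a type and less RNA per cell cannot be told apart, so each value is a level in the tissue.

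Nme7 encodes a family member found at the gamma-tubulin ring complex and inside the axonemal microtubules. It lies on the plus strand at chr1:164307524-164437300 (GRCm38.p6). It had 74.7, 69.6 and 83.2 TPM in the labelled DKO libraries and 63.9, 62.7 and 66.8 TPM in the labelled WT libraries. Every labelled DKO library was above every labelled WT library, as was the case for 15% of tested genes by TPM and 18.4% by CPM. In CPM (counts relative to the library total after scaling with the TMM factors of edgeR) the values were 75.9, 73.3 and 81.9 against 65.7, 59.7 and 66.5, again with no overlap. The expected count of Nme7 was a whole number in 1 of the 6 libraries, as happens when fragments are shared with another gene, while the other 7 kinases had whole counts in all 6. The fitted log2 fold change was 0.27 (SE 0.0754, 95% interval 0.10 to 0.43), a level 20.5% higher (edgeR adjusted p = 0.0455). The estimate stayed between 0.23 and 0.31 in all 12 other settings that kept every library, but the call did not: 8 of them passed, and the adjusted p ranged from 0.0200 to 0.999. It missed with libraries thinned to the smallest total (0.0598), in limma on log2(TPM + 1) (0.0924, where 4.3% of genes passed) and on log2(TPM + 0.1) (0.0923). It also missed with the fragment length as a covariate (edgeR adjusted p = 0.999), where 1 of all 17110 tested genes passed. Leaving out any 1 of the 6 libraries ended the call, at edgeR adjusted p of 0.132, 0.0690 and 0.0753 without labelled DKO replicates 1, 2 and 3 and of 0.0588, 0.181 and 0.112 without labelled WT replicates 1, 2 and 3. Spermatocyte markers also stood higher in the labelled DKO libraries: 5 of 6 had a log2 fold change above 0. Of the 6, 2 passed as higher (background 5.75%) and none as lower. Their summed level was 714 to 873 against 594 to 675 TPM, and none of the 6 was at 0 in all libraries. None of 5 round spermatid markers passed by edgeR or had an unadjusted p under 0.05 (2067 to 2121 against 1996 to 2258 TPM). The same held for 5 spermatogonial markers, and of 7 elongating spermatid markers 1 passed in each direction. The part of those markers, of depth or of fragment length in the Nme7 value was not tested beyond the settings above.

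Nme7 starts head to head with Blzf1, a Golgi protein gene on the opposite strand, and the sequence between their annotated starts is shown because both genes were higher. It covers chr1:164307488-164307523 (RefSeq annotation on GRCm38.p6, plus strand, 36 bases, no part in capitals).
Nme7 to Blzf1 gap: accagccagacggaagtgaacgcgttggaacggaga
Blzf1, looked up after the Nme7 result was seen, was also higher (log2 fold change 0.30 ± 0.0786 SE, edgeR adjusted p = 0.0396) with no overlap between groups in CPM. It passed in 9 of the 12 other settings that kept every library and in 1 of the 6 fits without a library, the one without labelled DKO replicate 3. Without the others, the adjusted p of Blzf1 was 0.144 and 0.0916 (labelled DKO replicates 1 and 2) and 0.0640, 0.158 and 0.106 (labelled WT replicates 1, 2 and 3). At its far end Nme7 overlaps Atp1b1, a sodium pump subunit gene on the opposite strand, by 202 bases. Whether counting used the strand is not stated in the sources used here. The expected counts of both genes were fractional in the same libraries, such as 3228.25 for Nme7 and 1655.75 for Atp1b1 in labelled DKO replicate 2. In each library they add to a whole number, as happens when fragments are split between these genes. Reads counted in that stretch may therefore belong to either gene. Atp1b1 had a log2 fold change of -0.06 (edgeR adjusted p = 0.619).

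The promoter windows of RefSeq (250 bases before to 50 after a transcript start, GRCm38.p6) were searched on both strands for GTTGCC, a form of one arm of the X-box that RFX factors of ciliated cells bind. It was present in 12.5% of all 32851 windows and in 3 of the 11 windows of the 7 kinases that have one, which belong to Ak1 and Nme7. The Nme7 window (chr1:164307422-164307721) held 2 matches, starting 136 and 3 bases before the start used there. That start lies downstream of chr1:164307524, the gene start given above and used for the gap to Blzf1, and so do both matches. A strict form of the full X-box palindrome, which can contain GTTGCC, was present in 0.451% of all windows and in none of the 11. That form had a fixed gap between its arms and required a pair of guanines at the start of the second arm. Looser forms, with other bases or another gap there, were not searched. In the Nme7 window the match 3 bases before the start is followed by agagtaac. Together these letters differ from the strict form only in the first guanine of that pair. Whether the remaining windows hold a looser form, and what share of all windows does, was not tested. A match describes letters only.

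Nme5 encodes a protein of the radial spokes, the arms that signal from the central pair of the axoneme to the dynein motors. It is annotated on the minus strand at chr18:34562634-34579152 (GRCm38.p6). It had 266, 227 and 250.1 TPM in the labelled DKO libraries and 209, 191 and 212 TPM in the labelled WT libraries. The groups did not overlap in TPM or in CPM (97.4, 89.3 and 93.2 against 82.9, 72.3 and 82.6 CPM). The log2 fold change was 0.24 (SE 0.0769, 95% interval 0.07 to 0.40) and missed the threshold (edgeR adjusted p = 0.0652). Nme5 has the shortest transcript of the 8 (829 bases in the files), and in the shortest of 10 length classes the median log2 fold change of 1711 genes was -0.15, while in the longest it was 0.08. With the effective length of each gene as an offset the log2 fold change of Nme5 was 0.32 (edgeR adjusted p = 0.0404), and with each library's length trend removed it was 0.36 (edgeR adjusted p = 0.0325). DESeq2 gave 0.23 and an adjusted p of 0.0433. Taking fragment length as a covariate gave 0.07 (edgeR adjusted p = 0.999), and no fit without 1 library passed (0.0700 to 0.254). Fragment length did not overlap between the groups, so its part and that of genotype in Nme5 cannot be told apart.

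**Figure D2:**
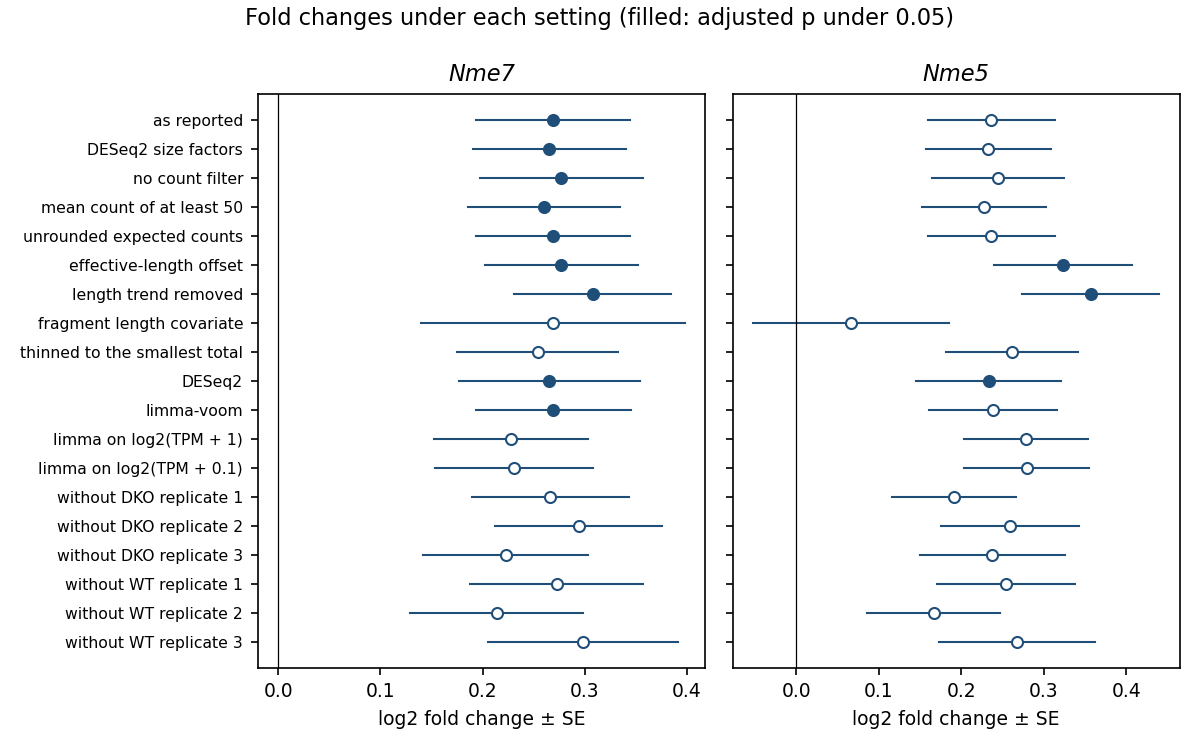
Log2 fold change of Nme7 and Nme5, labelled DKO over labelled WT, with its SE as a line, under the reported test and each other setting. Filled points passed an adjusted p under 0.05: Nme7 stays above 0 and near 0.27 while its call comes and goes, and Nme5 passes in 3 settings.

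Nme8 encodes a thioredoxin domain followed by nucleoside diphosphate kinase domains and is known from the fibrous sheath of sperm and from human ciliary disease. It lies on the minus strand at chr13:19645078-19697826 (GRCm38.p6). As a whole gene it had 227, 207 and 192 TPM in the labelled DKO libraries and 196, 205 and 215 TPM in the labelled WT libraries. The groups overlapped, and the log2 fold change was 0.12 (95% interval -0.07 to 0.30, SE 0.0844; edgeR adjusted p = 0.371).

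The estimated mix of Nme8 transcripts did not overlap between the groups, though the design cannot reach an exact p below 0.1. Both transcripts named in the files are in GENCODE M21 (GRCm38): a long one of 17 exons, 2122 bases and 586 codons, and a short one of 15 exons, 1704 bases and 470 codons. The short one lacks exons 15 and 16, 384 bases in all, and ends after 20 coding bases of the last exon. Their coding sequence is shown because, beside 34 bases of the first exon, it is what separates both transcripts. Exon 15 is chr13:19652187-19652331 and the coding part of exon 16 is chr13:19650754-19650979, both on the minus strand. Capitals mark in-frame codons that match the active-site histidine motif of nucleoside diphosphate kinases.
Nme8 exon 15: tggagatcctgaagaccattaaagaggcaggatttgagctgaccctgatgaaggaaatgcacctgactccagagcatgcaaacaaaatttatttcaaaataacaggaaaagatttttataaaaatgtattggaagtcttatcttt
Nme8 exon 16 coding part: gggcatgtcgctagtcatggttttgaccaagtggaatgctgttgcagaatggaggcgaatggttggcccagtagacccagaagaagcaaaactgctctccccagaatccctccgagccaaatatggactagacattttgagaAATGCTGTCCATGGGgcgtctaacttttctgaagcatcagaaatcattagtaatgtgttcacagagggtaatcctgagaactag
That match, in exon 16, was the only in-frame one in the long Nme8 transcript, and the short transcript had 0. Nme5 had 1 and each coding form of Nme7 had 1. Whether the marked codons form a working site was not measured.

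The files give each gene a length averaged over its transcripts by their estimated abundance. For Nme8 it was 1968, 1949 and 1984 bases in the labelled DKO libraries (1967 ± 17.4, SD, n = 3) and 1924, 1894 and 1917 bases in the labelled WT libraries (1912 ± 15.7, SD, n = 3). Every labelled DKO library had the longer average (difference 55.3 bases, two-sided exact permutation p = 0.1, below which 3 against 3 libraries cannot go). Among 4805 tested genes with several transcripts, 8.24% were longer in every labelled DKO library, and 10.4% had a difference at least as large in either direction. Converted to a share with the GENCODE lengths, the long transcript made up 63.2%, 58.6% and 66.9% of Nme8 in the labelled DKO libraries and 52.5%, 45.4% and 51.1% in the labelled WT libraries. In TPM the long transcript was at 144, 121 and 128 against 103, 93.2 and 110 (131 ± 11.3 against 102 ± 8.26, SD, n = 3), a ratio of 1.29. The short one was at 83.7, 85.8 and 63.4 against 93.1, 112 and 105 TPM (77.7 ± 12.4 against 103 ± 9.60, SD, n = 3), a ratio of 0.751. Shares and transcript levels are computed from the average length and the gene total, which overlapped (exact permutation p = 0.9), so they restate the length difference and are no further evidence of it. The difference in average length was 46.4 to 64.3 bases when any 1 library was left out. The authors' transcripts can differ from GENCODE by some bases (Nme5 is 829 bases in the files and 843 in GENCODE), which moves every share together. The estimate comes from fragments whose length did not overlap between the groups, and the part of that in the Nme8 shares was not tested.

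**Figure D3:**
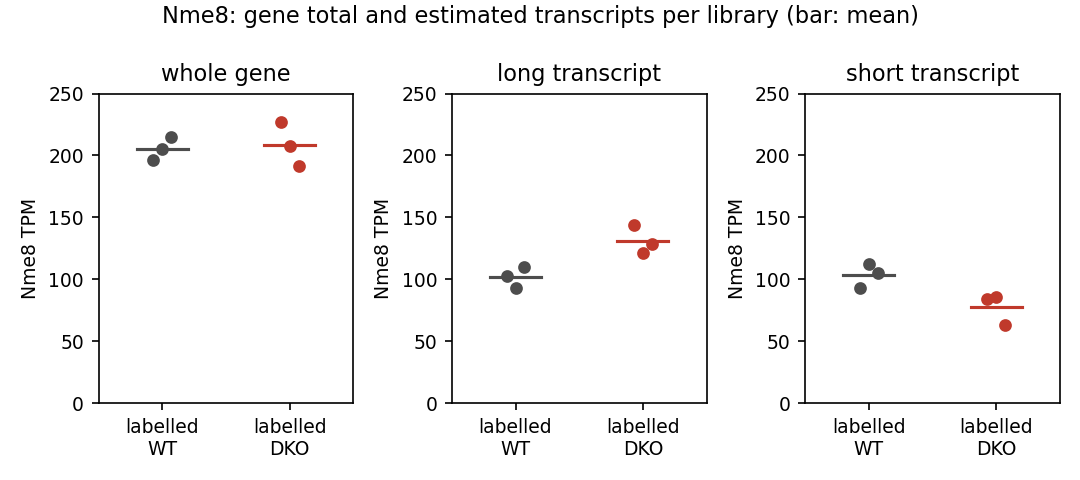
TPM of the whole Nme8 gene, of its long transcript and of its short transcript, with 1 point per library and a bar at each mean of 3. The gene total overlaps between the groups, while the long transcript is at 93.2 to 110 TPM in labelled WT and 121 to 144 TPM in labelled DKO libraries, and the short one lies the other way round.

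Among the 3 adenylate kinases 0 passed, by edgeR or DESeq2, and 0 had an unadjusted p under 0.05. Ak1, the cytosolic enzyme that is also found along the sperm tail (chr2:32621758-32635058, plus strand, GRCm38.p6), had 269.9, 277 and 282 CPM in the labelled DKO libraries and 269.6, 236 and 248 CPM in the labelled WT libraries. The groups just failed to overlap in CPM (background 18.4%), and in TPM they met (214, 213 and 232 against 213, 202 and 203). The log2 fold change of Ak1 was 0.14 (SE 0.0726, 95% interval -0.02 to 0.30, edgeR adjusted p = 0.214). Its average transcript length was 2081 against 2080 bases, a difference of 1.30 bases, with every labelled DKO library longer (exact permutation p = 0.1, as for Nme8). Nme7, the remaining kinase with several transcripts, averaged 1740 bases in both groups (difference 0.04 bases, exact permutation p = 1).

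Ak8, which carries a pair of adenylate kinase domains and is an axonemal enzyme (chr2:28698275-28813165, plus strand), had 218, 221 and 233 TPM in the labelled DKO libraries and 226, 209 and 207 TPM in the labelled WT libraries. The groups overlapped (log2 fold change 0.09 ± 0.0761 SE with a 95% interval of -0.07 to 0.26, edgeR adjusted p = 0.435). Ak8 overlaps Spaca9, a sperm acrosome gene on the opposite strand listed in the files as 1700026L06Rik, by 1377 bases, and that gene had a log2 fold change of -0.13 (edgeR adjusted p = 0.382). That overlap is one of annotated gene ranges. The RefSeq promoter window of Ak8 begins at chr2:28699911, past the end of Spaca9 at chr2:28699651. Both genes had whole expected counts in all 6 libraries, so the counts show no fragments split between them.

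Ak7, whose loss in people and mice disturbs the sperm tail (chr12:105703858-105782447, plus strand), was the tested member nearest to 0 in the reported test. It had 72.5, 69.1 and 73.9 TPM in the labelled DKO libraries and 73.8, 75.7 and 76.8 TPM in the labelled WT libraries. The groups overlapped, and the log2 fold change was -0.01 (95% interval -0.16 to 0.13, SE 0.066, edgeR adjusted p = 0.924). That rank depends on the setting. In limma on log2(TPM + 1) Ak7 was at -0.07, further from 0 than Nme8 (0.02) and Ak8 (0.06). With fragment length as a covariate Ak7 was at -0.09 and Ak8 at 0.03.

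The creatine kinases were the low end of the group. Ckb (chr12:111669355-111672338, minus strand) had 4.95, 5.29 and 7.05 TPM in the labelled DKO libraries and 5.82, 8.04 and 7.08 TPM in the labelled WT libraries. The groups overlapped, and the log2 fold change was -0.24 with the widest error of the 7 (95% interval -0.57 to 0.08, SE 0.149; edgeR adjusted p = 0.285). It was 0.30 with the fragment length as a covariate (edgeR adjusted p = 0.999). Some markers of somatic cells of the testis were lower in the same libraries. Of 7 Leydig cell markers 3 passed as lower (background 5.1%) and none as higher, and 1 had a log2 fold change above 0. Their summed level was 845 to 1502 against 1482 to 3105 TPM, ranges that overlap. Of 8 Sertoli cell markers 4 passed as lower and none as higher, and 2 had a log2 fold change above 0 (1680 to 2071 against 2180 to 2787 TPM). Those 4 were Defb19, Cst12, Rhox5 and Cldn11, of 394, 546, 800 and 1872 bases. Their log2 fold changes were -0.97, -0.51, -0.44 and -0.30. In the length class of 292 to 978 bases the median log2 fold change was -0.15, and in that of 1808 to 2185 bases it was -0.04. The part of length in these 4 was not tested. No marker of either list was at 0 in all libraries, and their part in the Ckb value was not tested. Of 4 peritubular and endothelial and 3 macrophage markers none passed by edgeR (3 and 1 had an unadjusted p under 0.05), with medians of -0.30 and -0.42 on the log2 scale.

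Ckmt1 (chr2:121357773-121363737, plus strand), the enzyme that would load creatine at the mitochondrion, was counted at 4, 6 and 3 fragments in the labelled DKO libraries and 3, 4 and 2 in the labelled WT libraries. It did not pass the count filter and was not tested. The summed counts were 13 and 9, a rate ratio of 0.827 relative to library size with a 95% interval of 0.327 to 2.19 that covers counting error only. At this depth, ratios of Ckmt1 within that interval could not be told apart. Ckmt1 overlaps Strc on the opposite strand by 490 bases.

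The neighbours of these kinases in the same chemistry were taken from 6 lists, described by counts with no set test. Each count called is to be read beside the share over all tested genes, 10.8% (5.75% higher and 5.1% lower). The other nucleoside diphosphate kinases stood below 0 where Nme5, Nme7 and Nme8 stood above. Of 5 tested genes (Nme9 had too few counts), all 5 had a log2 fold change below 0, with a median of -0.38, and 1 passed. That was Nme1, the cytosolic housekeeping enzyme, with 29.9 ± 2.76 TPM (SD, n = 3) in the labelled DKO libraries, 39.4 ± 3.12 TPM (SD, n = 3) in the labelled WT libraries and no overlap (log2 fold change -0.38 ± 0.0894 SE, edgeR adjusted p = 0.0325). Nme2, its close paralogue, was at -0.16 (edgeR adjusted p = 0.207) and Nme6 at -0.05 (edgeR adjusted p = 0.674). These directions depend on scaling: Nme6 was above 0 with the effective-length offset, with the length trend removed and with the covariate, Nme2 was above 0 with the covariate, and Nme8 was below 0 with the covariate. The 5 tested genes are also short, from 722 bases (Nme3) to 1235 bases (Nme1). In the 2 shortest length classes of all tested genes the median log2 fold change was -0.15 and -0.08. The median of the 5 was -0.31 with the length trend removed and -0.11 with the covariate. The part of length was not tested beyond these settings. Summed over Nme5, Nme7 and Nme8 the level was 568, 504 and 525 TPM in the labelled DKO libraries and 468, 459 and 493 TPM in the labelled WT libraries. These sums did not overlap, and of single tested genes 15% were likewise higher without overlap in TPM. Nme5 and Nme7 did not overlap on their own and Nme8 did, so the sum restates those values and is no further evidence. The summed level of Ak1, Ak7 and Ak8 overlapped (504, 503 and 539 against 513, 487 and 487 TPM).

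Of 9 other adenylate and nucleotide kinases that were tested, 1 passed in each direction (background 5.75% higher and 5.1% lower). The median log2 fold change was -0.09. Cmpk2, a mitochondrial nucleotide kinase, was higher (log2 fold change 0.46 ± 0.134 SE, edgeR adjusted p = 0.0490) at a low level of 2.50 TPM. Guk1, the guanylate kinase, was lower (log2 fold change -0.43 ± 0.0989 SE, edgeR adjusted p = 0.0321). Dtymk, the abundant thymidylate kinase, was at -0.09 (edgeR adjusted p = 0.552). Dtymk turned above 0 with the length trend removed and with the covariate. Of 5 other creatine genes 1 passed: Gamt, which makes creatine, was lower (log2 fold change -0.46 ± 0.113 SE, edgeR adjusted p = 0.0358), with a list median of -0.15. Gatm, which makes the precursor of creatine and is the most abundant of the list, was at -0.06 (edgeR adjusted p = 0.573).

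The carriers that bring mitochondrial ATP to these enzymes went both ways. Of 6 genes of mitochondrial ATP export 3 passed, 2 as higher and 1 as lower (background 5.75% and 5.1%), and the median was 0.02. Slc25a31, the adenine nucleotide translocator of male germ cells, had 48.2, 40.2 and 47.9 TPM in the labelled DKO libraries and 36.0, 36.3 and 36.4 TPM in the labelled WT libraries (log2 fold change 0.37 ± 0.0771 SE, edgeR adjusted p = 0.0269). Vdac3, an outer membrane channel needed for sperm motility in mice, had 542, 436 and 509 against 374, 362 and 389 TPM (log2 fold change 0.42 ± 0.0831 SE, edgeR adjusted p = 0.0255). Slc25a5, the translocator of proliferating and somatic cells, was lower (log2 fold change -0.44 ± 0.11 SE, edgeR adjusted p = 0.0360). Vdac2 was at 0.25 (edgeR adjusted p = 0.0577). Of 10 tested genes that sense or remove AMP, the product of adenylate kinase, 1 passed: Prkaa1, a catalytic subunit of the AMP-activated kinase, was higher (log2 fold change 0.38 ± 0.0975 SE, edgeR adjusted p = 0.0378), with a list median of -0.06. Stk11, which activates that kinase, and Prkag2, its AMP-binding subunit, were at -0.13 and 0.18 (edgeR adjusted p = 0.232 and 0.124). Of 10 tested radial spoke genes, the structure that Nme5 belongs to, 0 passed by edgeR, 2 had an unadjusted p under 0.05 and 1 passed by DESeq2. Their median was -0.07, and the most abundant, Ropn1l and Rsph1, were at 0.05 and -0.10 (edgeR adjusted p = 0.646 and 0.343).

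The 8 calls in these lists depended on single libraries, as did the calls over all genes. Cmpk2, Guk1, Gamt, Nme1, Slc25a31, Slc25a5, Vdac3 and Prkaa1 each lost the call without labelled DKO replicate 1, without labelled WT replicate 2 and without labelled WT replicate 3. In those fits 11, 13 and 7 of all tested genes passed, and 0 of them were higher, so the loss is not particular to these 8. The largest adjusted p in a fit without a library was 0.183 for Cmpk2, 0.103 for Guk1, 0.142 for Gamt, 0.115 for Nme1, 0.107 for Slc25a31, 0.143 for Slc25a5, 0.1005 for Vdac3 and 0.151 for Prkaa1. Without labelled DKO replicate 2 the calls of Cmpk2, Gamt, Nme1, Slc25a5 and Prkaa1 were lost too, at 0.0551, 0.0689, 0.0560, 0.0767 and 0.0783. Cmpk2 also lost its call without labelled DKO replicate 3 (0.0905) and without labelled WT replicate 1 (0.0702). None of the 8 passed once fragment length was a covariate, a setting in which 1 of all 17110 tested genes passed. Cmpk2 passed in 4 of the 12 other settings that kept every library, and missed with DESeq2 size factors (edgeR adjusted p = 0.0503), the effective-length offset (0.0541), the length trend removed (0.0536), limma-voom (0.0547), thinned libraries (0.132) and limma on log2(TPM + 1) (0.121) and log2(TPM + 0.1) (0.127). Gamt missed with the length trend removed (0.0549), and with thinned libraries Nme1 (0.0712) and Prkaa1 (0.0558) did. On log2(TPM + 1) and log2(TPM + 0.1), limma gave adjusted p of 0.0543 and 0.0511 for Slc25a31, 0.0721 and 0.0674 for Slc25a5, 0.0608 and 0.0557 for Gamt and 0.0919 and 0.0838 for Prkaa1. Guk1 and Vdac3 missed in none of these settings but the covariate.

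**Figure D4:**
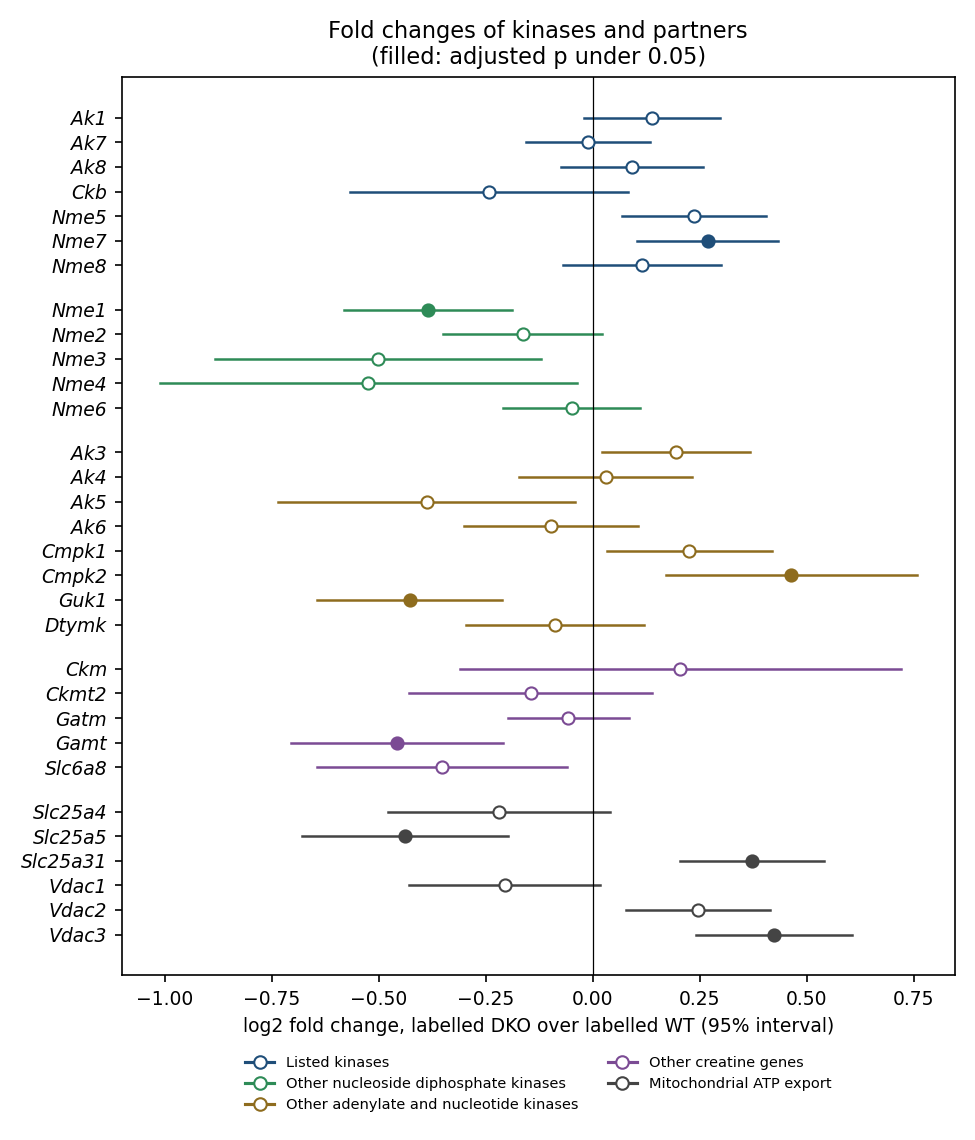
Log2 fold change, labelled DKO over labelled WT, with its 95% interval, for the 7 tested kinases and genes of 4 lists of partners, 3 libraries per group. Filled points passed an adjusted p under 0.05: Nme7 among the listed kinases, Nme1, Cmpk2, Guk1, Gamt, Slc25a5, Slc25a31 and Vdac3 among the partners.

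Between the members, log2 CPM over the 6 libraries ran together most for Ak1 and Ak8 (Pearson r = 0.943) and for Nme5 and Nme7 (r = 0.930), and most oppositely for Ckb and Nme8 (r = -0.853). The points share library, depth and group, so these values are a description. Among 12023 other genes averaging 2 or more in log2 CPM, the pattern most like that of Nme7 belonged to 1110004E09Rik and Ist1 (r = 0.997 for both), and 411 genes had r above 0.9. For Nme5 they were Psenen and Dnajb14 (r = 0.997 and 0.996), with 1387 genes above 0.9. For Ak7, 14 genes were above 0.9, led by Gm10516 and Uqcrfs1 (r = 0.973 and 0.960), but on log2 TPM these were at 0.536 and 0.837. The nearest to Ak1 were 4930567H12Rik and Prss44 (r = 0.998 and 0.991), to Ak8 Spata20 and Akap12 (r = 0.993 and 0.989), to Nme8 Tsc22d2 and Chic2 (r = 0.997 and 0.994), and to Ckb Dhx57 and Araf (r = 0.995 and 0.994). On log2 TPM the named genes other than those of Ak7 were at 0.876 (Chic2) to 0.996 (Psenen).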

How the data were processed

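RNA was sequenced from 6 testis libraries, 3 labelled DKO and 3 labelled WT, grouped by the genotype label. Per the file headers, the deposited files are RSEM gene tables with an expected count, a TPM, a length and an effective length per gene. The submitters' processing notes name STAR 2.7.0f, RSEM 1.2.31, DESeq2 1.12.3 and mm10, with no role for each. The strand setting and transcript set are not given in the sources used here. The authors' expected counts, as deposited, are estimates; they were rounded (93.2% were whole within 0.005). The authors' TPM values, as deposited, are scaled by effective length. The length deposited by the authors is weighted by transcript abundance, and its excess over the effective length, in genes longer than 3000 bases, gave the mean fragment length. The series' design speaks of 3 mice per genotype, and each library was taken as 1 replicate; nothing else says how the tissue was collected, so p-values measure the spread between these samples.

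Genes were filtered by filterByExpr of edgeR 4.0.16 in R 4.3.3 (17110 of 24411 kept), scaled by TMM and tested by its quasi-likelihood test with genotype as the only term, with Benjamini-Hochberg adjustment over all tested genes and a threshold of 0.05. SE is the absolute log2 fold change divided by the square root of F. Levels between genes were compared in TPM only. Transcript lengths and exon sequences came from GENCODE M21, and positions and promoter windows from RefSeq on GRCm38.p6. The script for counts was tested on simulated data. Genes named are the 8 members, both targeted genes, each called gene and the 2 highest by TPM of 6 lists, and the 2 most correlated genes per member. One gene that this rule names is not reported here. Other genes named were chosen after their values were seen. The members and lists were chosen with earlier results of these data known. Alternatives were no count filter, DESeq2 size factors, unrounded counts, only genes with a mean count of 50 or more, an effective-length offset, a length-trend offset (mgcv 1.9.3), fragment length as a covariate, thinned libraries, DESeq2 1.42.0, limma-voom and limma 3.58.1 on log2(TPM + 1) and log2(TPM + 0.1), adjusted p under 0.01 or 0.10, and each library left out.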

Additional observations from a re-analysis of the deposited data

How the results depend on the processing

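The count of kinases called, all higher, was 1 with no count filter, DESeq2 size factors, unrounded counts, only genes with a mean count of 50 or more, and limma-voom. It was 2 with the effective-length offset, the length trend removed, DESeq2 and an adjusted p under 0.10. It was 0 with the fragment length covariate, thinned libraries, limma on log2(TPM + 1) and log2(TPM + 0.1), an adjusted p under 0.01, and each library left out (0 to 0). No kinase was called lower in any of these. Over all genes, calls numbered 1 with the covariate (0 higher, 1 lower), 2943 with DESeq2 (1645 higher), 735 with limma on log2(TPM + 1) (279 higher, 456 lower), 947 on log2(TPM + 0.1) (370 higher, 577 lower), 7 at an adjusted p under 0.01 (0 higher, 7 lower), 4002 at 0.10 (2192 higher, 1810 lower) and 7 to 3029 with 1 library left out (0 to 1903 higher, 7 to 1126 lower). With the covariate, the direction turned for Nme8 (-0.15), Ckb (0.30), Prkag2 (-0.0187), Dtymk (0.18), Nme2 (0.11) and Nme6 (0.0392) on the log2 scale. With the length trend removed it turned for Dtymk (0.022), Nme6 (0.0442) and 1700026L06Rik (0.0175), with the effective-length offset for Nme6 (0.0038), and for Ak7 the values without 1 library ran from -0.0486 to 0.0056, above 0 without labelled WT replicate 3. The cause was not tested. Depth limits Ckmt1, at 2 to 6 counts per library. No paired analysis was possible because the replicate numbers follow the order of deposition, and the labels tie no library of one group to a library of the other.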
